A study of Mus musculus with 18 samples.

Results

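Brain endothelial and blood-brain barrier genes were followed as a named set of 10: Pecam1, Cldn5, Flt1, Kdr, Slco1a4, Abcb1a, Ly6a, Ly6c1, Cdh5 and Tek. The rule that picks them uses gene names and no measured level, but the set was proposed with earlier results of these data known. They are 10 of the 18683 genes in the deposited expression table. All 10 passed the filter on low values, at least 0.5 FPKM (fragments per kilobase of gene, scaled to library depth) in at least 3 libraries, in both tissues.

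Capillaries of the brain are lined by endothelial cells sealed to each other by tight and adherens junctions, so that solutes reach neurons mainly through carriers in the endothelial membrane. Efflux pumps return drugs and metabolites to the blood, while receptors for vascular endothelial growth factor (VEGF) and angiopoietins keep the vessels alive and quiescent. Wnt and Norrin ligands from glia and neurons maintain this barrier program, and inflammatory cytokines act on the same cells.

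The 18 libraries were bulk RNA sequencing of prefrontal cortex (PFC) and hippocampus (HPC) from male mice, in 6 groups of 3. 5xFAD EV mice carried the 5xFAD transgenes and received extracellular vesicles (EV), membrane particles released by cells, here from human breast milk. 5xFAD PBS mice had the same genotype and received phosphate-buffered saline (PBS), and wildtype PBS mice received PBS without the transgenes. The wildtype strain was C57BL/6J, every mouse was injected in a vein every 3 days, 10 times, between 5 and 6 months of age, and brains were perfused with cold PBS after behavioral tests. The 5xFAD line makes mutant human amyloid precursor protein and presenilin 1 from the Thy1 promoter, which is active in neurons. Whether the libraries of a group came from different mice is not stated, so the tests speak to variation among these libraries, whatever its source. In bulk tissue, fewer endothelial cells and less RNA per endothelial cell cannot be told apart.

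Libraries held 26437852 to 36901744 reads in listed genes, and each value of a member rested on 317 to 2762 reads. Some libraries stood apart in markers of other tissues. The summed FPKM of 13 choroid plexus markers was 7.10, 14.3 and 874 in 5xFAD EV PFC (874 in replicate 3), 5.68 to 9.10 in 5xFAD PBS PFC and 4.99 to 10.1 in wildtype PBS PFC. In HPC it was 192 to 5782 in 5xFAD EV, 2657 to 9016 in 5xFAD PBS and 37.6 to 172 in wildtype PBS libraries.

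Every member was measured in every library, and their order by mean FPKM over the 18 libraries spanned the set from 30.5 for Ly6a to 1.77 for Kdr. Ly6a and Ly6c1 (23.4), small membrane-anchored surface proteins abundant on mouse brain endothelium, came first, ahead of Cldn5 (18.9), the main claudin of the brain's tight junctions. Slco1a4 (11.9), an organic anion carrier, followed, and then Pecam1 (7.38), an adhesion molecule at endothelial contacts, and Abcb1a (7.0), the P-glycoprotein efflux pump. The VEGF receptor Flt1 (4.62), the endothelial cadherin Cdh5 (3.87), the angiopoietin receptor Tek (3.42) and the VEGF receptor Kdr closed the order. Neighbours in this order overlapped in their ranges, such as Pecam1 with 5.98 to 9.39 and Abcb1a with 5.28 to 9.85 FPKM, except Tek (2.71 to 4.81) and Kdr (1.28 to 2.40). The highest library exceeded the lowest by 1.57 times for Pecam1 and by 2.66 times for Ly6a, with the other 8 members between them.

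**Figure D1:**
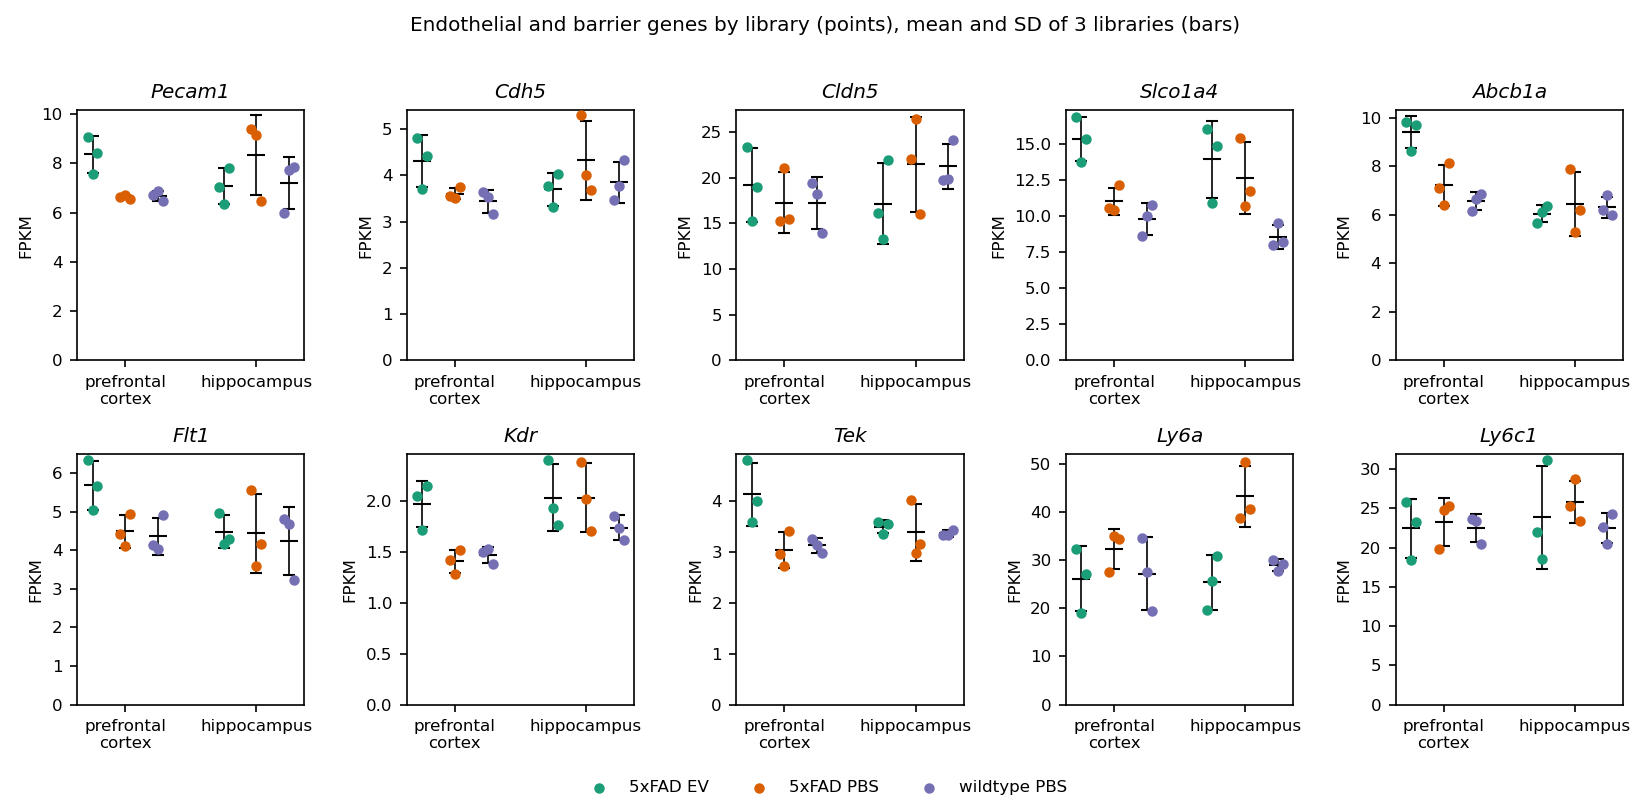
FPKM of each member (vertical axis, linear from 0) by tissue and group, with each library as a point and the mean and SD of 3 libraries as bars. In prefrontal cortex the 3 points of 5xFAD EV lie above all 3 of 5xFAD PBS for 6 members (Pecam1, Slco1a4, Abcb1a, Flt1, Kdr and Tek), and in hippocampus Ly6a of 5xFAD EV (19.5 to 30.9) lies below that of 5xFAD PBS (38.7 to 50.3).

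Upstream sequences from RefSeq were found for 7 of the 10 members (8 sequences, 2 of them for Ly6c1), on build GRCm38.p6. None was found for Pecam1, Cdh5 and Ly6a, so these were not searched for any motif. The expression table was made on GRCm39, per the submitters' processing notes. The 250 bases before the annotated start are shown for the carriers Slco1a4 and Abcb1a, which passed the test in the comparison with wildtype below, and for Flt1, the VEGF receptor with a match to the ETS motif. ETS factors bind a core read here as CNGGAAG on either strand, and its match stands in capitals. Slco1a4 lies at chr6:141856221-141856470 on the minus strand, Abcb1a at chr5:8566841-8567090 on the plus strand and Flt1 at chr5:147726012-147726261 on the minus strand.
Slco1a4: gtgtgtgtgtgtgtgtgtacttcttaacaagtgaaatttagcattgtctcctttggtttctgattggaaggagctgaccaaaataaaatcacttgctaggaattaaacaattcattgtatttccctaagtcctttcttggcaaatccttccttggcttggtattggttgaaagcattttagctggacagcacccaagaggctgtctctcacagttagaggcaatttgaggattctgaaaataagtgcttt
Abcb1a: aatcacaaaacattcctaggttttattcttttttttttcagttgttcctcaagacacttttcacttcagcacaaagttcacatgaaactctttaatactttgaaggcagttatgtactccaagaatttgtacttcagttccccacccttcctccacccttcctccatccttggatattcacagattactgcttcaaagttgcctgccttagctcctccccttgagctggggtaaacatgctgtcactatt
Flt1: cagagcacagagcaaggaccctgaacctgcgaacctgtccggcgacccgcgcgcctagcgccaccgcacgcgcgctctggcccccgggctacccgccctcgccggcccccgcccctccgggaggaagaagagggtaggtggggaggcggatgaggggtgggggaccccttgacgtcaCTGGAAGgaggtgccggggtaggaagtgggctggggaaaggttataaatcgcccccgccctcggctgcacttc
CNGGAAG was present in the 250-base window of 26.6% of 32851 RefSeq promoters. Among the 7 members searched it matched in Flt1 alone, with its first base at position -73 from the start. The interferon-stimulated response element, read as TTTC, any 2 bases, TTTC (2.98% of the promoters), and the gamma-activated site, read as TTCNNNGAA (7.02%), matched in none of the 8 member windows, both strands searched. A match is a description of these letters, and its absence says nothing of whether a factor acts on the gene.

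The first question was what vesicles did to these genes in 5xFAD mice, and in PFC most members stood higher with vesicles, although none passed the test. Differences are of mean log2(FPKM + 0.5), tested with limma across all genes with Benjamini-Hochberg adjustment and called at an adjusted p under 0.05. In 5xFAD EV against 5xFAD PBS PFC, 0 of 10 members and 0% of 13055 genes were called. At an unadjusted limma p under 0.05 there were 6 of 10 members and 616 genes (4.72%), and limma-voom on recovered reads also called 0 genes.

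Slco1a4 had the largest log2 difference of the 10 members. It had 16.9, 13.8 and 15.4 FPKM in 5xFAD EV PFC, against 10.5, 10.4 and 12.1 in 5xFAD PBS PFC. Abcb1a had 9.85, 8.65 and 9.72 FPKM in 5xFAD EV PFC, against 7.11, 6.41 and 8.12 in 5xFAD PBS PFC. For both genes the lowest vesicle library lay above the highest PBS library. The log2 differences were 0.46 (SE 0.11, limma adjusted p = 0.82) for Slco1a4 and 0.36 (SE 0.10, adjusted p = 0.82) for Abcb1a.

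The 3 receptors behaved alike. Flt1 had 6.34, 5.05 and 5.68 FPKM in 5xFAD EV PFC, against 4.43, 4.11 and 4.95 in 5xFAD PBS PFC. Kdr, which carries most VEGF signalling in endothelium, had 2.05, 1.71 and 2.14 FPKM in 5xFAD EV PFC, against 1.42, 1.28 and 1.52 in 5xFAD PBS PFC. Tek had 4.81, 3.58 and 4.0 FPKM in 5xFAD EV PFC, against 2.96, 2.71 and 3.41 in 5xFAD PBS PFC. None of the 3 overlapped between the groups, with log2 differences of 0.31 (SE 0.12), 0.37 (SE 0.11) and 0.39 (SE 0.12) in that order, each at a limma adjusted p of 0.82.

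The junction genes were split. Pecam1 had 9.08, 7.58 and 8.43 FPKM in 5xFAD EV PFC, against 6.64, 6.70 and 6.54 in 5xFAD PBS PFC, without overlap (log2 difference 0.31, SE 0.09, limma adjusted p = 0.82). Cdh5 had 4.81, 3.71 and 4.43 FPKM in 5xFAD EV PFC, against 3.55, 3.51 and 3.74 in 5xFAD PBS PFC. The groups of Cdh5 overlapped by the margin between 3.71 and 3.74 (log2 difference 0.23, SE 0.11). Cldn5 overlapped widely, with 23.3, 15.3 and 19.0 FPKM in 5xFAD EV PFC, against 15.2, 21.1 and 15.4 in 5xFAD PBS PFC (log2 difference 0.15, SE 0.18, 95% interval -0.25 to 0.54).

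The Ly6 proteins did not share the direction. Ly6a had 32.3, 19.0 and 27.2 FPKM in 5xFAD EV PFC, against 27.4, 35.0 and 34.5 in 5xFAD PBS PFC. Ly6c1 had 25.8, 18.4 and 23.2 FPKM in 5xFAD EV PFC, against 19.8, 24.8 and 25.3 in 5xFAD PBS PFC. Both overlapped, with log2 differences of -0.32 (SE 0.22, 95% interval -0.82 to 0.17) for Ly6a and -0.06 (SE 0.13, 95% interval -0.35 to 0.24) for Ly6c1.

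Counted over the set, 6 of 10 members were without overlap and higher in 5xFAD EV PFC, where 6.68% of all genes tested were. The median log2 difference of the members was 0.31, beside 0.02 over all genes. Among 128 other genes of junctions, carriers, caveolae, Wnt and Norrin signalling, VEGF and angiopoietin signalling and endothelial identity or activation, 111 were tested. They are called other endothelial genes below for short. The lists go by function and hold ligands such as Angpt1, and which cells made each gene was not tested. Of these 111, 23 were higher without overlap (20.7%) and 1 was lower without overlap (3.94% of all genes were). Their median was 0.16, 91 lay above 0 (82.0%, beside 55.9% of all genes) and none was called. Tie1, the receptor that pairs with Tek, averaged 2.78 ± 0.25 FPKM in 5xFAD EV PFC and 1.70 ± 0.54 in 5xFAD PBS PFC (SD, n = 3 each). Ptprb, the phosphatase that restrains Tek, averaged 4.82 ± 0.46 FPKM in 5xFAD EV PFC and 3.40 ± 0.57 in 5xFAD PBS PFC. Tie1 and Ptprb were picked after their values were seen, and neither overlapped between the groups. Vegfa, the ligand of Flt1 and Kdr, averaged 11.1 ± 1.05 FPKM in 5xFAD EV PFC and 8.66 ± 0.88 in 5xFAD PBS PFC, also without overlap. Slc2a1, the glucose carrier of the barrier, averaged 35.8 ± 3.04 FPKM in 5xFAD EV PFC and 30.7 ± 2.38 in 5xFAD PBS PFC and overlapped. None of these 4 genes was called (limma adjusted p = 0.82 each).

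**Figure D2:**
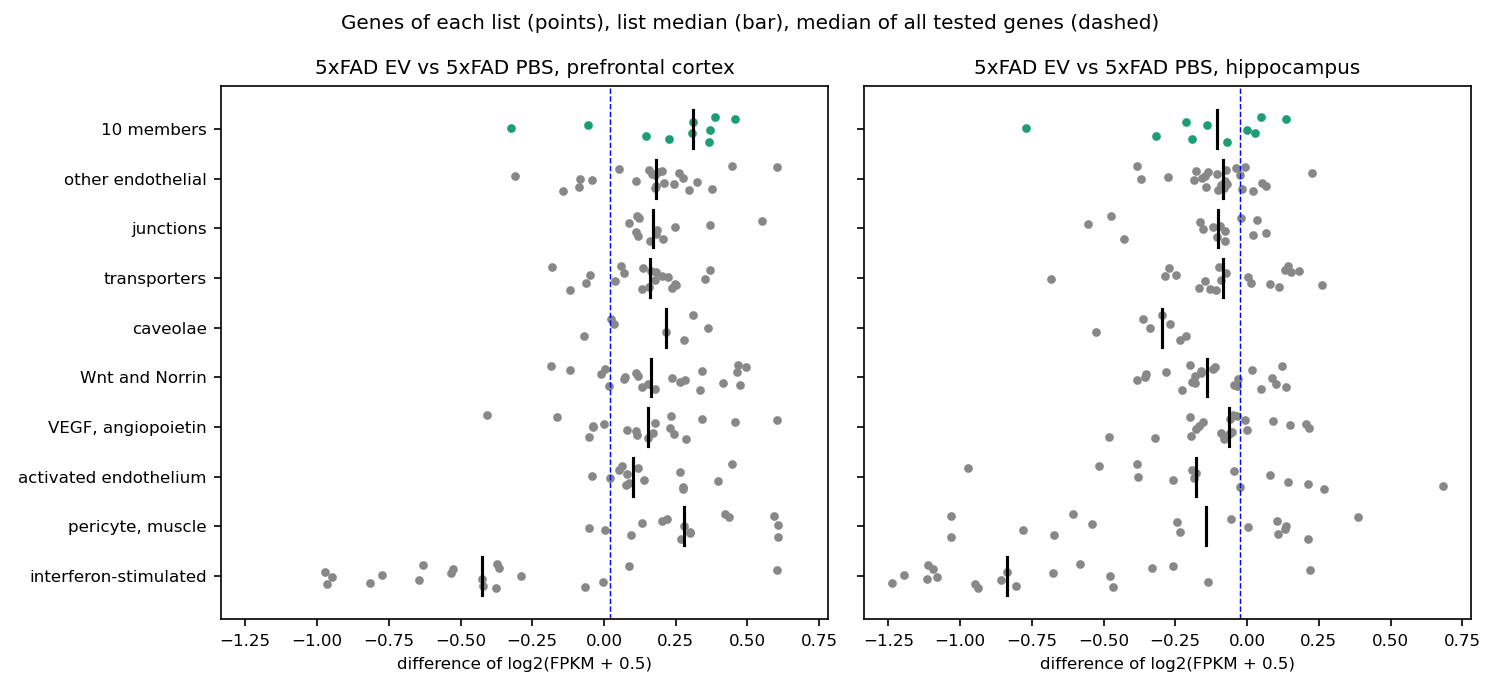
Difference of log2(FPKM + 0.5) (horizontal axis) of each gene (points) of the gene groups named on the left, 5xFAD EV against 5xFAD PBS, in prefrontal cortex and hippocampus, with each group's median as a black bar and the median of all tested genes as a dashed line. The median of the 10 members is 0.31 in prefrontal cortex and -0.10 in hippocampus, and that of interferon-stimulated genes is -0.42 and -0.84.

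Markers of some other cells moved with these values, and those of others went the other way. The 16 markers of pericytes and vascular smooth muscle, the cells that wrap the endothelium, summed to 94.9 to 116 FPKM in 5xFAD EV PFC, 69.3 to 87.7 in 5xFAD PBS PFC and 68.0 to 85.7 in wildtype PBS PFC. None of these markers was at 0 in a whole group, 14 of 15 tested were above 0 in 5xFAD EV against 5xFAD PBS PFC, and 4 were without overlap. Vtn, a pericyte-derived protein, averaged 41.5 ± 4.59 FPKM in 5xFAD EV PFC and 30.9 ± 3.99 in 5xFAD PBS PFC, and Rgs5, a pericyte marker, 26.4 ± 5.83 in 5xFAD EV PFC and 19.2 ± 1.13 in 5xFAD PBS PFC. The 5 red cell markers, all globins and Alas2, summed to 65.6, 13.2 and 54.6 FPKM in 5xFAD EV PFC, 4.68, 26.0 and 1.79 in 5xFAD PBS PFC and 4.12, 69.4 and 3.87 in wildtype PBS PFC. All 5 red cell markers were above 0 in 5xFAD EV against 5xFAD PBS PFC (median log2 difference 2.09), but 1 wildtype library was as high as any vesicle library. The 11 meningeal fibroblast markers, of which 10 were tested, were all above 0 with a median of 0.31, and their sums overlapped (39.2 to 82.4 FPKM in 5xFAD EV PFC and 30.04 to 50.9 in 5xFAD PBS PFC). All 12 astrocyte markers were above 0 too, with a median of 0.09 and 1 without overlap. The part of mural, meningeal and glial cells or retained blood in the endothelial values was not tested. Interferon-stimulated genes differed the other way, 14 of 19 lower without overlap in 5xFAD EV than 5xFAD PBS PFC and none called. Microglial markers were above 0 in 1 of 14 there (median -0.20, 3 lower without overlap). Neuronal markers were above 0 in 3 of 12 (median -0.06, 2 lower and 1 higher without overlap). No marker of these 2 lists was called, and their part in the endothelial values was not tested. Without 5xFAD EV PFC replicate 3, the library with choroid plexus markers, the log2 differences were 0.45 for Slco1a4, 0.34 for Abcb1a, 0.40 for Tek, 0.32 for Kdr, 0.31 for Flt1 and 0.30 for Pecam1. Over all 15 alternatives, other libraries left out included, the lowest values were 0.39, 0.29, 0.28, 0.30, 0.23 and 0.25 in that order.

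**Figure D3:**
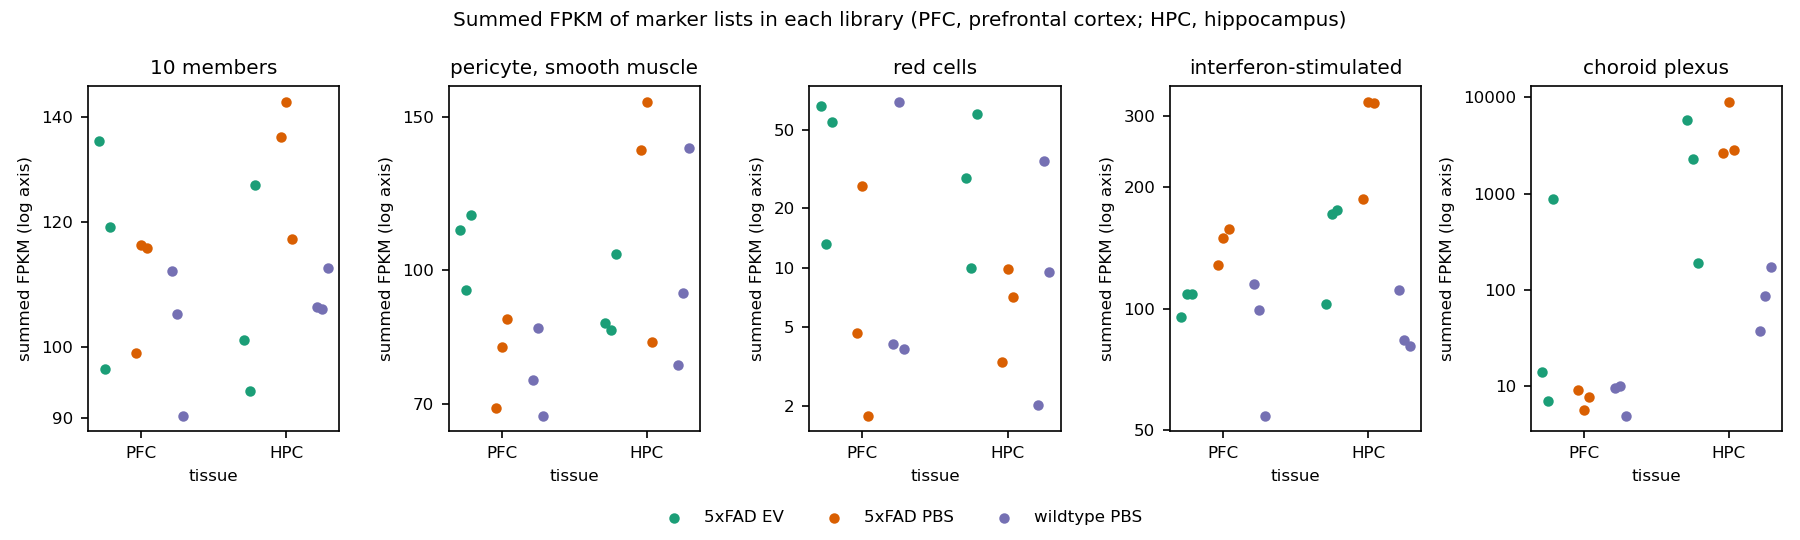
Summed FPKM (log axes, each panel with its own range) of the 10 members and of 4 marker lists in each library (points), by tissue and group. The pericyte and smooth muscle sum of the 3 vesicle libraries in prefrontal cortex lies above all 6 PBS libraries there, while the red cell sum is spread from 1.79 to 69.4 among those 9 libraries.

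Of the 4 members that overlapped, Cldn5, Ly6a and Ly6c1 had the shortest recovered gene lengths of the set, 1416, 1002 and 1691 bases, beside 3333 (Pecam1) to 13929 bases (Flt1) for the other 7. The slope of log2 level on log2 length, relative to the other libraries, was 0.00 to 0.05 in 5xFAD EV PFC, -0.08 to 0.03 in 5xFAD PBS PFC and -0.10 to 0.05 in wildtype PBS PFC. That trend was then removed from each library, an alternative added after the data were seen. With it removed, the log2 differences of the 6 genes without overlap were 0.23 (Flt1) to 0.45 (Slco1a4). Over all 15 alternatives the difference of Cldn5 ran from -0.003 to 0.30, of Ly6a from -0.49 to -0.11 and of Ly6c1 from -0.17 to 0.08. Values of these short genes with the trend removed are not reported here, and the part of gene length in their overlap was not tested.

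Set against wildtype PBS PFC, 5xFAD EV PFC had 2 members called, both carriers and both higher, where 1.52% of genes were called and 1.4% were called higher. Slco1a4 had 16.9, 13.8 and 15.4 FPKM in 5xFAD EV PFC, against 8.61, 10.0 and 10.8 in wildtype PBS PFC, a log2 difference of 0.62 (SE 0.11, limma adjusted p = 0.019). Abcb1a had 9.85, 8.65 and 9.72 FPKM in 5xFAD EV PFC, against 6.17, 6.67 and 6.86 in wildtype PBS PFC (log2 difference 0.49, SE 0.10, limma adjusted p = 0.048). Neither gene overlapped between the groups. The call of Abcb1a was marginal: it was lost with any 1 library left out (limma adjusted p = 0.066 to 0.22). The call of Slco1a4 was lost without 5xFAD EV PFC replicate 1 (limma adjusted p = 0.082) or wildtype PBS PFC replicate 1 (0.094).

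Of the other members, Pecam1 (0.30), Flt1 (0.35), Kdr (0.32), Tek (0.35) and Cdh5 (0.29) were also higher in 5xFAD EV than wildtype PBS PFC without overlap, but not called (limma adjusted p = 0.15 to 0.27). That made 7 of 10 without overlap, beside 13.6% of all genes in that direction. Cldn5 (0.15), Ly6a (-0.05) and Ly6c1 (-0.01) overlapped, with 95% intervals that reached from -0.54 to 0.54 over the 3 genes. The comparisons with 5xFAD PBS and with wildtype PBS share the 3 vesicle libraries, so they are not separate evidence. Of the 111 other endothelial genes, 2 were called, both higher, beside 1.4% of all genes called higher. Reck, a receptor partner for Wnt7 ligands at the barrier, averaged 3.08 ± 0.26 FPKM in 5xFAD EV PFC and 1.59 ± 0.08 in wildtype PBS PFC (log2 difference 0.78, limma adjusted p = 0.0078). Slco2b1, an organic anion carrier that microglia also express, averaged 5.59 ± 0.60 FPKM in 5xFAD EV PFC and 3.71 ± 0.04 in wildtype PBS PFC (0.53, limma adjusted p = 0.030). Microglial markers differed in the same comparison, with 10 of 14 called higher. Pericyte and smooth muscle markers were above 0 in 15 of 15 tested, 9 of them without overlap and none called.

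In hippocampus 1 member did not overlap between 5xFAD EV and 5xFAD PBS, Ly6a, and it was lower with vesicles. Ly6a had 19.5, 25.7 and 30.9 FPKM in 5xFAD EV HPC, against 38.7, 50.3 and 40.6 in 5xFAD PBS HPC. The groups did not overlap (5.21% of all genes were lower without overlap and 2.3% higher), and the log2 difference was -0.77 (SE 0.16, 95% interval -1.12 to -0.42). It did not pass adjustment (limma adjusted p = 0.87); 0 members and 0% of 13305 genes were called, by limma or by limma-voom on recovered reads. At an unadjusted limma p under 0.05 there were 1 member, Ly6a, and 519 genes (3.9%). With 1 library left out the Ly6a difference was -0.92 to -0.60, and with the length trend removed it was -0.62.

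The carriers and receptors overlapped between 5xFAD EV and 5xFAD PBS HPC. Slco1a4 had 16.02, 10.9 and 14.9 FPKM in 5xFAD EV HPC, against 15.4, 10.7 and 11.7 in 5xFAD PBS HPC (log2 difference 0.13, 95% interval -0.24 to 0.51). Abcb1a had 5.65, 6.13 and 6.37 FPKM in 5xFAD EV HPC, against 7.88, 5.28 and 6.19 in 5xFAD PBS HPC (-0.07, 95% interval -0.37 to 0.23). Kdr had 2.40, 1.93 and 1.77 FPKM in 5xFAD EV HPC, against 2.38, 2.02 and 1.70 in 5xFAD PBS HPC (95% interval -0.31 to 0.31). Flt1 averaged 4.48 ± 0.43 FPKM in 5xFAD EV HPC and 4.44 ± 1.03 in 5xFAD PBS HPC, and Tek 3.49 ± 0.13 in 5xFAD EV HPC and 3.39 ± 0.56 in 5xFAD PBS HPC (SD, n = 3 each).

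The junction genes and Ly6c1 had lower means with vesicles in hippocampus, within the spread of the libraries. Cldn5 had 16.1, 13.3 and 22.0 FPKM in 5xFAD EV HPC, against 22.0, 26.4 and 16.1 in 5xFAD PBS HPC. Pecam1 had 7.02, 6.35 and 7.81 FPKM in 5xFAD EV HPC, against 9.39, 9.13 and 6.47 in 5xFAD PBS HPC. Cdh5 averaged 3.69 ± 0.36 FPKM in 5xFAD EV HPC and 4.33 ± 0.85 in 5xFAD PBS HPC, and Ly6c1 23.9 ± 6.56 in 5xFAD EV HPC and 25.8 ± 2.70 in 5xFAD PBS HPC. Over the set the median log2 difference was -0.10, beside -0.02 over all genes.

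Ly6a is known to be inducible by interferon, and other interferon-stimulated genes were also lower in 5xFAD EV than 5xFAD PBS HPC, though not lower than in wildtype PBS HPC. The 19 measured genes of that list summed to 103 to 176 FPKM in 5xFAD EV HPC, 186 to 325 in 5xFAD PBS HPC and 80.6 to 111 in wildtype PBS HPC, with 9 of 19 lower without overlap and none called in 5xFAD EV against 5xFAD PBS. Against wildtype PBS HPC all 19 were above 0 in 5xFAD EV HPC (median 0.71, 1 called), whereas Ly6a was at -0.21 there (95% interval -0.56 to 0.14). Bst2, an antiviral membrane protein, averaged 18.4 ± 2.29 FPKM in 5xFAD EV HPC and 37.4 ± 13.5 in 5xFAD PBS HPC (log2 difference -0.94). The 11 meningeal fibroblast markers were also lower (8 of 11 without overlap), summing to 64.5 to 125 FPKM in 5xFAD EV HPC and 111 to 235 in 5xFAD PBS HPC. Of the 116 other endothelial genes tested, 6 were lower without overlap (5.17%, near the 5.21% of all genes). None was higher without overlap, beside 2.3% of all genes, and none was called. The part of interferon, meninges or choroid plexus in the Ly6a values was not tested.

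Against wildtype PBS HPC, 5xFAD EV HPC had 0 of 10 members called, beside 2.1% of genes, and 1 member at an unadjusted limma p under 0.05, beside 12.3% of genes. Slco1a4 came nearest, with 16.02, 10.9 and 14.9 FPKM in 5xFAD EV HPC, against 7.97, 9.49 and 8.23 in wildtype PBS HPC (log2 difference 0.66, SE 0.17, limma adjusted p = 0.097). It was called without 5xFAD EV HPC replicate 2 (0.82, limma adjusted p = 0.040). Slco1a4 was the 1 member of 10 without overlap, beside 10.7% of all genes higher without overlap, and the median of the members was 0.01. Its relative Slco1a5 averaged 0.49 ± 0.53 FPKM in 5xFAD EV HPC and 0.05 ± 0.05 in wildtype PBS HPC. In the same comparison all 13 choroid plexus markers were above 0 (median 2.58, 0 called), and their part in the Slco1a4 values was not tested.

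The other members overlapped between 5xFAD EV and wildtype PBS HPC. Of the receptors, Kdr differed by 0.17 on the log2 scale, Flt1 by 0.08 and Tek by 0.05. Cldn5 (-0.32), Cdh5 (-0.05), Pecam1 (-0.02), Abcb1a (-0.06) and Ly6a (-0.21) had lower log2 means with vesicles, and Ly6c1 (0.05) a higher one. Over these 9 genes the 95% intervals reached from -0.78 (Cldn5) to 0.48 (Kdr and Flt1). Of the 116 other endothelial genes, 4 were called, all higher, beside 1.93% of all genes called higher. They were the chemokine Cxcl10 (1.74), the junction protein F11r (0.96), the carrier Slco2b1 (0.88) and Ehd4 (0.64). In the same comparison 12 of 14 microglial markers were called higher, and their part in these calls was not tested.

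The second question was what the 5xFAD genotype did without vesicles. In PFC 0 members were called, where 1.96% of genes were, and 0 had an unadjusted limma p under 0.05, where 8.16% of genes did. All 10 overlapped between 5xFAD PBS and wildtype PBS PFC, while 9.75% of genes were higher and 4.99% lower without overlap. Slco1a4 averaged 11.03 ± 0.95 FPKM in 5xFAD PBS PFC and 9.81 ± 1.10 in wildtype PBS PFC, and Abcb1a 7.22 ± 0.86 in 5xFAD PBS PFC and 6.56 ± 0.36 in wildtype PBS PFC (SD, n = 3 each). Pecam1 averaged 6.63 ± 0.08 FPKM in 5xFAD PBS PFC and 6.67 ± 0.21 in wildtype PBS PFC, with a 95% interval of the log2 difference from -0.20 to 0.18. Ly6a had the widest 95% interval, from -0.22 to 0.77 around 0.28. The log2 differences of the others were 0.00 for Cldn5, 0.06 for Cdh5, 0.04 for Flt1, -0.05 for Kdr, -0.04 for Tek and 0.04 for Ly6c1, with 95% intervals that reached from -0.40 to 0.40, both for Cldn5. The median over the members was 0.04, beside 0.02 over all genes. Of the other endothelial genes only Slco2b1 was called (log2 difference 0.71, limma adjusted p = 0.0041), in a comparison where 12 of 14 microglial markers were called higher.

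In HPC 0 members were called between 5xFAD PBS and wildtype PBS, beside 4.59% of genes, but Slco1a4 and Ly6a were higher without overlap, as were 16.5% of all genes. They were also the 2 members at an unadjusted limma p under 0.05, beside 18.8% of genes. Ly6a had 38.7, 50.3 and 40.6 FPKM in 5xFAD PBS HPC, against 30.05, 27.7 and 29.1 in wildtype PBS HPC (log2 difference 0.56, SE 0.16, limma adjusted p = 0.082). It was called when these 2 groups alone entered the fit (limma adjusted p = 0.025). The same 5xFAD PBS HPC libraries were set against vesicles above, so the 2 Ly6a differences are not separate evidence. Slco1a4 differed by 0.52 (SE 0.17, limma adjusted p = 0.12), its 5xFAD PBS libraries reaching down to 10.7 FPKM and its wildtype libraries up to 9.49. Cldn5 averaged 21.5 ± 5.19 FPKM in 5xFAD PBS HPC and 21.2 ± 2.49 in wildtype PBS HPC, and Tek 3.39 ± 0.56 in 5xFAD PBS HPC and 3.36 ± 0.06 in wildtype PBS HPC. The log2 differences were 0.19 for Pecam1 and for Ly6c1, 0.17 for Kdr, 0.14 for Cdh5, 0.06 for Flt1 and 0.01 for Abcb1a, and these 6 overlapped too. The median of the members was 0.16, beside 0.02 over all genes.

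Genes of the other endothelial lists did pass in 5xFAD PBS against wildtype PBS HPC, 10 of 116 tested and all 10 higher (4.19% of all genes were called higher). They were the adhesion molecules Icam1 (log2 difference 1.21) and Vcam1 (1.01), the chemokine Cxcl10 (1.53), the junction protein F11r (1.12), the membrane-shaping protein Ehd4 (1.0), the carrier Slco2b1 (0.98), the Ly6 gene Ly6c2 (0.96), the Tek ligand Angpt1 (0.88), the efflux pump Abcb1b (0.64) and the transcription factor Fli1 (0.62). Their limma adjusted p ran from 0.00094 (Ehd4) to 0.041 (Fli1 and Cxcl10). Angpt1 averaged 3.13 ± 0.42 FPKM in 5xFAD PBS HPC and 1.48 ± 0.27 in wildtype PBS HPC, and Vcam1 18.8 ± 4.46 in 5xFAD PBS HPC and 9.01 ± 1.42 in wildtype PBS HPC (SD, n = 3 each). Abcb1b and Ly6c2 are close relatives of Abcb1a and Ly6c1, so their reads are uncertain. They averaged 1.23 ± 0.25 and 0.72 ± 0.27 FPKM in 5xFAD PBS HPC and 0.60 ± 0.05 and 0.12 ± 0.08 in wildtype PBS HPC, well under their relatives among the members. Ly6c2 passed the filter of 0.5 FPKM in HPC only through 5xFAD libraries (highest wildtype PBS HPC value 0.20), so its place among the 10 rests on the group where it is high. In the same comparison 12 of 14 microglial, 10 of 13 choroid plexus and 10 of 19 interferon-stimulated genes were called higher. All 11 meningeal markers were above 0 (median 0.71, 1 called), and their sums did not overlap, at 111 to 235 FPKM in 5xFAD PBS HPC and 51.6 to 106 in wildtype PBS HPC. Microglia are known to express Slco2b1, Fli1 and Cxcl10 as well, and the part of other cells was not tested.

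**Figure D4:**
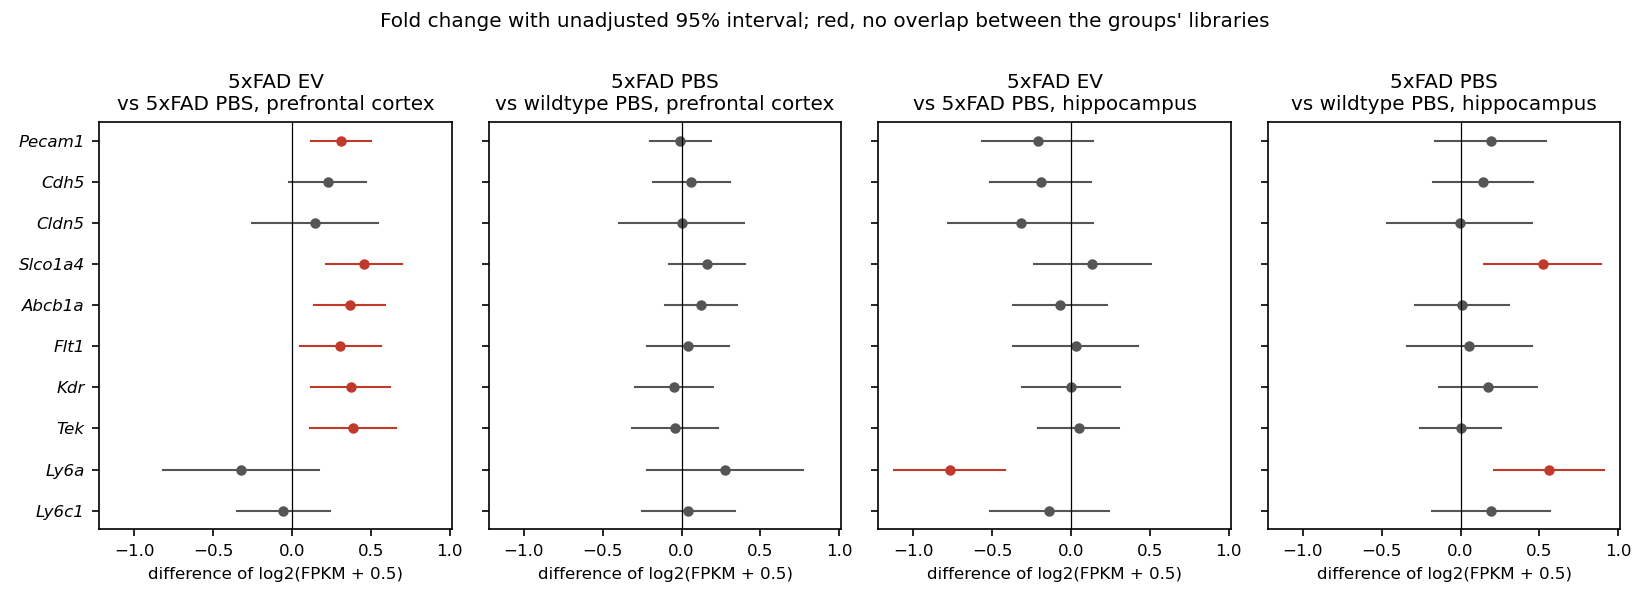
Difference of log2(FPKM + 0.5) (horizontal axis) of each member with its unadjusted 95% interval from limma, for 2 comparisons in prefrontal cortex and 2 in hippocampus; red marks groups whose libraries do not overlap. Red points number 6 for vesicles in prefrontal cortex, 1 (Ly6a, -0.77) for vesicles in hippocampus, 2 for genotype in hippocampus and 0 for genotype in prefrontal cortex.

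The third question was whether the 2 tissues differ. The labels do not say whether the same number in HPC and PFC marks the same mouse, and the libraries were treated as unpaired. In wildtype PBS mice 0 of 10 members were called between HPC and PFC, beside 15.9% of genes, and 0 had an unadjusted limma p under 0.05, beside 28% of genes. The median log2 difference was 0.09, beside 0.04 over all genes. Cldn5, Kdr and Tek were higher in HPC than PFC of wildtype mice without overlap, by 0.30, 0.18 and 0.09 (19.3% of all genes were higher without overlap). The other members overlapped between the tissues of wildtype mice, from -0.18 for Slco1a4 to 0.14 for Cdh5, with Pecam1 at 0.09, Ly6a at 0.13, Abcb1a and Flt1 at -0.05 and Ly6c1 between them. Among partners of the receptors, Nrp1, the VEGF co-receptor that neurons also carry, averaged 8.45 ± 1.55 FPKM in HPC and 2.71 ± 0.20 in PFC of wildtype mice (log2 difference 1.47, limma adjusted p = 3.6e-07).

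In 5xFAD PBS mice Kdr was called higher in HPC, with 2.38, 2.02 and 1.70 FPKM in HPC against 1.42, 1.28 and 1.52 in PFC (log2 difference 0.40, SE 0.12, limma adjusted p = 0.022), among the 25.1% of genes called (15.3% higher). Kdr and Ly6a (0.41, limma adjusted p = 0.17) were the members higher in HPC without overlap, as were 25.9% of genes. The other 8 overlapped and ran from -0.16 for Abcb1a through Flt1 (-0.03), Tek (0.13), Ly6c1 (0.15), Slco1a4 (0.17), Cdh5 (0.22) and Pecam1 (0.29) to 0.30 for Cldn5. The call of Kdr was lost without any of 4 of the 6 libraries (limma adjusted p = 0.059 to 0.097). In 5xFAD EV mice Abcb1a was called lower in HPC, with 5.65, 6.13 and 6.37 FPKM in HPC against 9.85, 8.65 and 9.72 in PFC (log2 difference -0.60, SE 0.12, limma adjusted p = 0.0022). Calls of any kind made up 16.9% of genes there, and lower calls 8.32%. Flt1 (-0.31) and Tek (-0.21) were lower in HPC without overlap too, as were 15.5% of genes, but not called. The other 7 overlapped and ran from -0.23 for Pecam1 through Cdh5 (-0.20), Cldn5 (-0.17), Slco1a4 (-0.15), Ly6a (-0.03) and Kdr (0.03) to 0.07 for Ly6c1. Abcb1a was called in all 15 alternatives run, the 6 with 1 library left out included (-0.65 to -0.55). The 5xFAD EV PFC libraries of this comparison are those of the vesicle comparisons in PFC, so the call is not separate evidence. In the other groups Abcb1a did not pass between the tissues (-0.16 in 5xFAD PBS and -0.05 in wildtype PBS mice).

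Whether the vesicle difference depended on tissue was tested as an interaction, and 0 members and 0% of 13574 genes were called, by limma or limma-voom, with 4 members and 680 genes (5.01%) at an unadjusted limma p under 0.05. The vesicle difference in HPC minus that in PFC was above 0 for 0 of 10 members, beside 39.3% of all genes, and ran from -0.52 for Pecam1 (95% interval -0.91 to -0.14) to -0.08 for Ly6c1 (95% interval -0.57 to 0.40). Abcb1a (-0.43), Cdh5 (-0.42) and Kdr (-0.37) had unadjusted 95% intervals that lay below 0 as well. The others were Cldn5 (-0.46), Ly6a (-0.45), Tek (-0.34), Slco1a4 (-0.32) and Flt1 (-0.28). The median of the members was -0.39, beside -0.05 over all genes. The interaction uses the same libraries as the vesicle comparisons within each tissue, so it is not separate evidence from them. Other lists lay below 0 in the same interaction: 18 of 116 other endothelial genes were above 0 (median -0.27), 2 of 16 pericyte and smooth muscle markers (-0.32), 2 of 12 astrocyte markers (-0.18), 3 of 19 interferon-stimulated genes (-0.35), 0 of 11 meningeal markers (-1.14) and 0 of 13 choroid plexus markers (-1.93). Microglial markers were above 0 in 11 of 14 (0.12) and neuronal markers in 9 of 12 (0.17). None of these genes was called, and the part of other cells in the members' values was not tested. The genotype difference in HPC minus that in PFC was called for 0 members and 0% of genes (0 members and 787 genes, 5.8%, at an unadjusted limma p under 0.05), and its largest member value was 0.36 for Slco1a4 (95% interval -0.08 to 0.80). Ly6a (0.29), Kdr (0.22), Pecam1 (0.20), Ly6c1 (0.15), Cdh5 (0.08), Tek (0.04), Flt1 (0.02), Cldn5 (-0.01) and Abcb1a (-0.11) followed.

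Within tissues the members did not vary as a block. After each gene was centred on its tissue mean, Cdh5 (Pearson r = 0.93), Pecam1 (0.85) and Tek (0.83) followed the mean of the 10 members most closely over the 18 libraries, and Ly6c1 (0.54) and Ly6a (0.34) least. Cldn5 was nearest to Ly6c1 (0.74), and Ly6a to Ly6c1 (0.67), whereas Abcb1a was nearest to Tek (0.84) and Flt1 to Abcb1a (0.79). Ly6a and Flt1 were the farthest pair (-0.21). These 2 have the shortest (1002 bases) and the longest (13929 bases) recovered gene length of the set, and Cldn5 and Ly6c1 are the next shortest. The slope of log2 level on log2 length ran from -0.17 to 0.11 among HPC libraries and from -0.10 to 0.05 among PFC libraries. The correlations were not corrected for gene length, and its part in them was not tested. Each member counts in the mean it was set against, and all values share libraries and depth, so these are descriptions without a test.

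**Figure D5:**
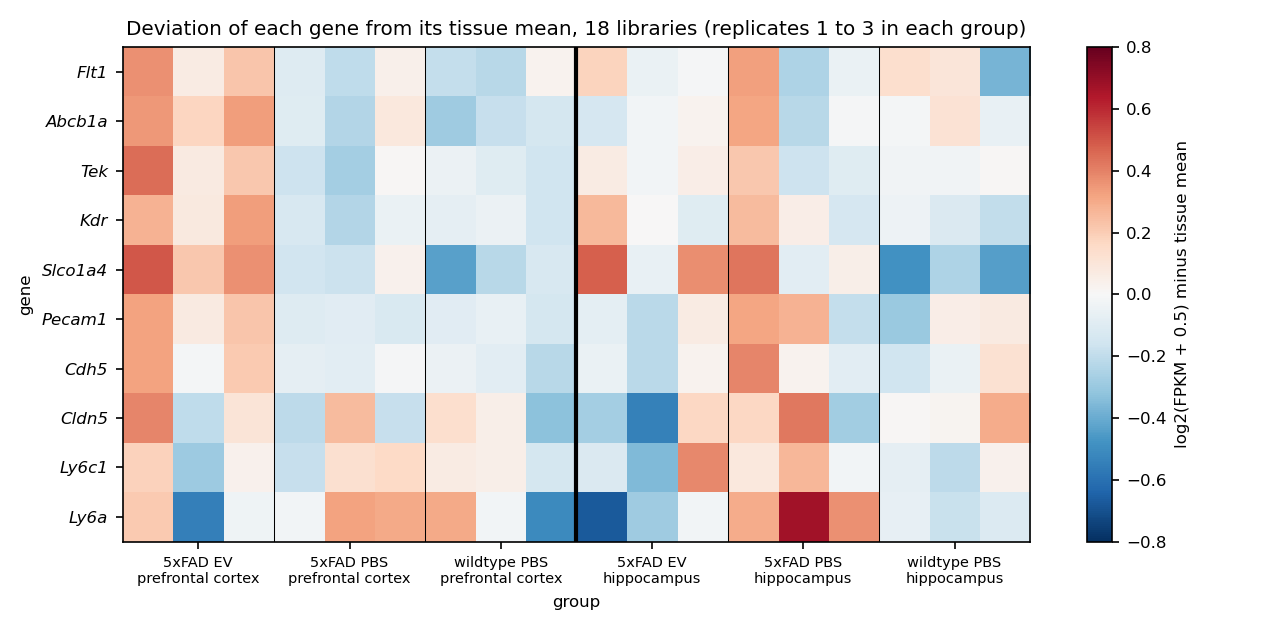
Level of each member in each of the 18 libraries as log2(FPKM + 0.5) minus its tissue mean (colour scale), libraries along the horizontal axis by group and genes down the vertical axis. Pecam1, Cdh5, Slco1a4, Abcb1a, Flt1, Kdr and Tek are above their mean in the vesicle libraries of prefrontal cortex except Cdh5 in replicate 2 (-0.02), whereas Cldn5, Ly6a and Ly6c1 differ in sign among those libraries; Ly6a spans -0.67 to 0.67 over all 18.

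Outside the set, the genes whose centred profile was most like the mean of the members, of 13564 compared over 18 libraries, included Podxl (r = 0.82), Pigc (0.82), Manba (0.81) and Ngp (0.80). The single nearest gene was Des for Pecam1 (0.87), Myh11 for Cdh5 (0.84), Plod1 for Cldn5 (0.88) and for Ly6c1 (0.83), and Mto1 for Ly6a (0.82). It was Vangl2 for Slco1a4 (0.90), Adgrf5 for Abcb1a (0.89) and for Flt1 (0.88), Tns1 for Kdr (0.86) and Sema3g for Tek (0.86). The best of 13564 correlations is high by selection, and no p-value is attached to it.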

How the data were processed

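Bulk RNA was sequenced from 18 libraries in 6 groups of 3; groups and replicate numbers came from the sample titles. Reads were processed with fastp, HISAT2 and HTSeq on build GRCm39, per the submitters' processing notes; the sources used here do not give tool versions. The authors deposited FPKM values per gene, and all 18 columns were used. The FPKM steps gave whole reads for 100% of 18683 genes (tolerance 0.01 read), from which depth and, for 99.6% of genes, whole gene lengths were recovered. Depth limits precision: a member value rested on at least 317 reads.

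A gene entered a fit if 3 or more of its libraries reached 0.5 FPKM. Tests ran on log2(FPKM + 0.5), which understates changes of low genes, with limma 3.58.1 (trended variance, empirical Bayes) in R 4.3.3. Group comparisons used the 9 libraries of a tissue (13055 genes in PFC, 13305 in HPC); comparisons across tissues and interactions used all 18 libraries (13574 genes). Benjamini-Hochberg adjustment ran over all genes tested. Intervals are 95% and unadjusted. The procedure was tested on simulated data. The members and all gene lists were chosen with earlier results of these data known. All 10 members are named in every comparison; genes of other lists were taken from up to 4 called genes by absolute difference, or the 2 with the highest level where none was called, and not all of these are printed. The 5 genes most like the members' mean were to be named, of which 1 is not reported here. Same-numbered libraries deviated together in every pair only in 5xFAD PBS against wildtype PBS PFC (r = 0.21, 0.51 and 0.17). Alternatives were other pseudocounts, no filter, quantile and TMM-like scaling, limma-voom on recovered reads, the compared groups alone, a replicate block, each library left out and, added after the data were seen, removal of the length trend.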

Additional observations from a re-analysis of the deposited data

How the results depend on the processing

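Member values were recomputed 1770 times under the alternatives: 1646 kept their direction and side of the threshold, 20 calls were lost, 3 were gained, and 101 differences that were not called changed sign, the largest of them 0.17 on the log2 scale. Most of these values were never called, and each main call had 15 alternatives. In 5xFAD EV against wildtype PBS PFC, the call was kept in 12 for Slco1a4 and in 4 for Abcb1a. Between tissues it was kept in 9 for Kdr (5xFAD PBS mice) and in 15 for Abcb1a (5xFAD EV mice). For 5xFAD EV against wildtype PBS PFC, 2 members were called, 1 (Slco1a4) with a pseudocount of 1, with no filter, with quantile and with TMM-like scaling, 0 with the compared groups alone and 0 to 1 with a library left out. Genes called there were 125 with quantile scaling, 118 with the compared groups alone and 89 to 229 with a library left out, beside 198. For HPC against PFC in 5xFAD PBS mice, 1 member was called, 0 with quantile scaling and with the compared groups alone, and 0 to 2 with a library left out (genes 2140 to 3320). With the compared groups alone, 1 member was called in 5xFAD PBS against wildtype PBS HPC, 1275 genes in HPC against PFC of 5xFAD EV mice and 42 genes for the genotype interaction. No filter gave 1 gene for the vesicle interaction, and removal of the length trend gave 931 genes in 5xFAD PBS against wildtype PBS HPC, beside 611. With a library left out, genes called were 142 to 218 (5xFAD PBS against wildtype PBS PFC), 320 to 446 (HPC), 0 to 1 (5xFAD EV against 5xFAD PBS in either tissue) and 159 to 278 (5xFAD EV against wildtype PBS HPC, members 0 to 1). The cause of these moves was not tested, except that fewer libraries enter the fits with groups alone or a library left out. The replicate block, which pairs libraries by number, changed no member call (Slco1a4 0.033 and Abcb1a 0.044 in 5xFAD EV against wildtype PBS PFC, Kdr 0.043 and Abcb1a 0.0051 between tissues, limma adjusted p). Same-numbered libraries of the 2 tissues correlated at 0.38, 0.50 and 0.01 in 5xFAD PBS mice. The values were 0.31, 0.17 and -0.27 in wildtype PBS mice and -0.24, 0.09 and -0.21 in 5xFAD EV mice. The number is not stated to mark a mouse. Limma-voom on recovered reads called 2 members and 228 genes in 5xFAD EV against wildtype PBS PFC. With 3 libraries a group, only differences well beyond the spread of these values could pass.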
